A study of Mus musculus with 10 samples.

Results

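GABA-A receptors are chloride channels that open when GABA binds, and each is built from several subunits chosen from a large family. The data described here are the transcripts of 7 of those subunits, Gabra2, Gabra3, Gabra4, Gabra5, Gabrb1, Gabrb2 and Gabrd, chosen by symbol from 32531 gene rows. All 7 had reads in every library and all 7 were abundant enough to be tested. The samples were 10 ribosome pull-downs of the medial habenula, an epithalamic nucleus that sends cholinergic fibres to the interpeduncular nucleus, 5 from the left side and 5 from the right. All mice were adults that carried the Chat-EGFP/Rpl10a transgene (Chat-TRAP, animal line DW167), a bacterial artificial chromosome in which Chat sequences drive an EGFP-tagged ribosomal protein. Both sides therefore share the transgene, and the labels name no treatment. The sides were dissected apart and tagged polysomes were captured with antibodies to EGFP. The labels give neither the sex nor whether animals were pooled, and they do not say that replicates of a side came from different animals, so p-values measure only the spread between these libraries. No unpurified input was used here, so a level is not an enrichment over tissue.

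The α subunits form the GABA site together with a β subunit and largely set where a receptor sits and which drugs act on it. Receptors with α2 or α3 are mostly synaptic and sensitive to benzodiazepines, whereas α4 receptors are insensitive to the classical benzodiazepines. The δ subunit, encoded by Gabrd, joins α4 and β2 in extrasynaptic receptors of thalamic relay neurons, which carry tonic inhibition, and α5 is best known for tonic inhibition in the hippocampus.

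Gene reads per library ranged from 42488448 to 67942836, and Rn45s, a ribosomal RNA precursor, took 0.891% to 10.2% of them. Levels are CPM, reads of a gene per 1000000 gene reads of its library, and errors are SD over 5 libraries of a side. The markers listed for the medial habenula, 12 of 12 with reads in every library, summed to 6919 to 11119 CPM in left libraries and 5336 to 11256 CPM in right libraries. Libraries of the same side stood apart from each other. Replicates 1 and 5 were closest, with a scatter of counts 2.14 times counting noise on the left and 1.29 times on the right for genes with 100 to 500 reads, against 6.71 to 49.7 times for every other pair within a side. These pairs still differed by more than counting noise. For genes with 20 to 100 reads their scatter was lower on both sides, as was that of the other pairs within a side. Such scatter cannot show that replicates 1 and 5 came from different animals, because it does not separate animals from preparations. They were kept as separate libraries, as the labels list them. The comparison of the sides was also made without replicates 1 and 5 and with them summed.

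Among the 7 subunits, 6 varied 8.79-fold to 17.9-fold between libraries of the same nucleus, while Gabra2 varied 1.69-fold. Over all 16250 genes tested the median range was 2.03-fold, and 19.9% of genes ranged at least 5-fold. The 6 variable subunits were lowest in replicates 1 and 5 of both sides, higher in right replicate 2, and higher still in each of the remaining 5 libraries. Neither side stood apart for any subunit, and 0 of the 7 had left and right values that did not overlap, where 0.215% of tested genes had such values.

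Gabrb2 encodes β2, a widespread β subunit that is abundant in thalamus, and it had the widest range. It had 21.2, 149, 189, 299 and 16.7 CPM in left replicates 1 to 5, against 19.2, 77.2, 269, 239 and 19.0 CPM in right replicates 1 to 5. Its lowest library, left replicate 5, held 926 of its reads and its highest, left replicate 4, held 19613. Left libraries averaged 135 ± 119 CPM and right libraries 125 ± 121 CPM, so the spread within a side was about as large as the level itself.

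Gabra4, the α subunit that pairs with β2 and δ in relay neurons, ranked the libraries in the same order within each side. It had 12.2, 51.0, 56.9, 94.97 and 9.74 CPM in left replicates 1 to 5, against 9.83, 30.3, 78.9, 72.3 and 8.57 CPM in right replicates 1 to 5. The means were 45.0 ± 35.3 CPM in left libraries and 40.0 ± 33.7 CPM in right libraries. Gabrd, the δ subunit, had the lowest mean CPM of the 7 on both sides, with 1.16, 9.81, 7.45, 8.09 and 1.119 CPM in left replicates 1 to 5, against 1.22, 4.803, 10.8, 7.98 and 1.18 CPM in right replicates 1 to 5. In left replicate 5 the δ value rested on 62 reads, and an exact Poisson 95% interval that covers counting error only put it between 0.858 and 1.43 CPM. The interval does not reach the lowest value outside replicates 1 and 5, 4.803 CPM in right replicate 2. Gabrd was highest on the left in replicate 2, where Gabra4 and Gabrb2 were highest in replicate 4.

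Gabra3 encodes α3, known from the reticular thalamus and monoamine neurons. It had 5.07, 20.2, 23.3, 29.8 and 3.93 CPM in left replicates 1 to 5, against 4.66, 10.8, 36.2, 36.9 and 5.05 CPM in right replicates 1 to 5. It was the only subunit of the 7 with a lower mean on the left, 16.5 ± 11.4 CPM, against 18.7 ± 16.5 CPM on the right, a gap well within either SD. Gabra5, the α5 subunit, had 2.60, 8.32, 13.7, 19.7 and 2.17 CPM in left replicates 1 to 5, against 2.76, 7.11, 17.2, 12.003 and 2.43 CPM in right replicates 1 to 5. Gabrb1, the β1 subunit, had 4.30, 11.993, 21.3, 26.4 and 4.20 CPM in left replicates 1 to 5, against 3.41, 6.72, 24.5, 26.6 and 3.03 CPM in right replicates 1 to 5. For both genes each of replicates 2 to 4 lay above replicates 1 and 5 of its own side.

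Gabra2 encodes α2, a synaptic subunit of forebrain that is prominent at the axon initial segment, and it did not follow the others. It had 21.9, 18.6, 21.3, 31.5 and 19.1 CPM in left replicates 1 to 5, against 20.3, 22.8, 20.4, 23.96 and 18.8 CPM in right replicates 1 to 5. The means were 22.5 ± 5.26 CPM in left libraries and 21.2 ± 2.08 CPM in right libraries. Left replicate 4 was high, and the remaining 9 libraries lay between 18.6 and 23.96 CPM. A range as wide as that of Gabra2 was found in 68.7% of tested genes, against 8.47% for Gabrb2 and 11.7% to 13.6% for the other 5.

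**Figure D1:**
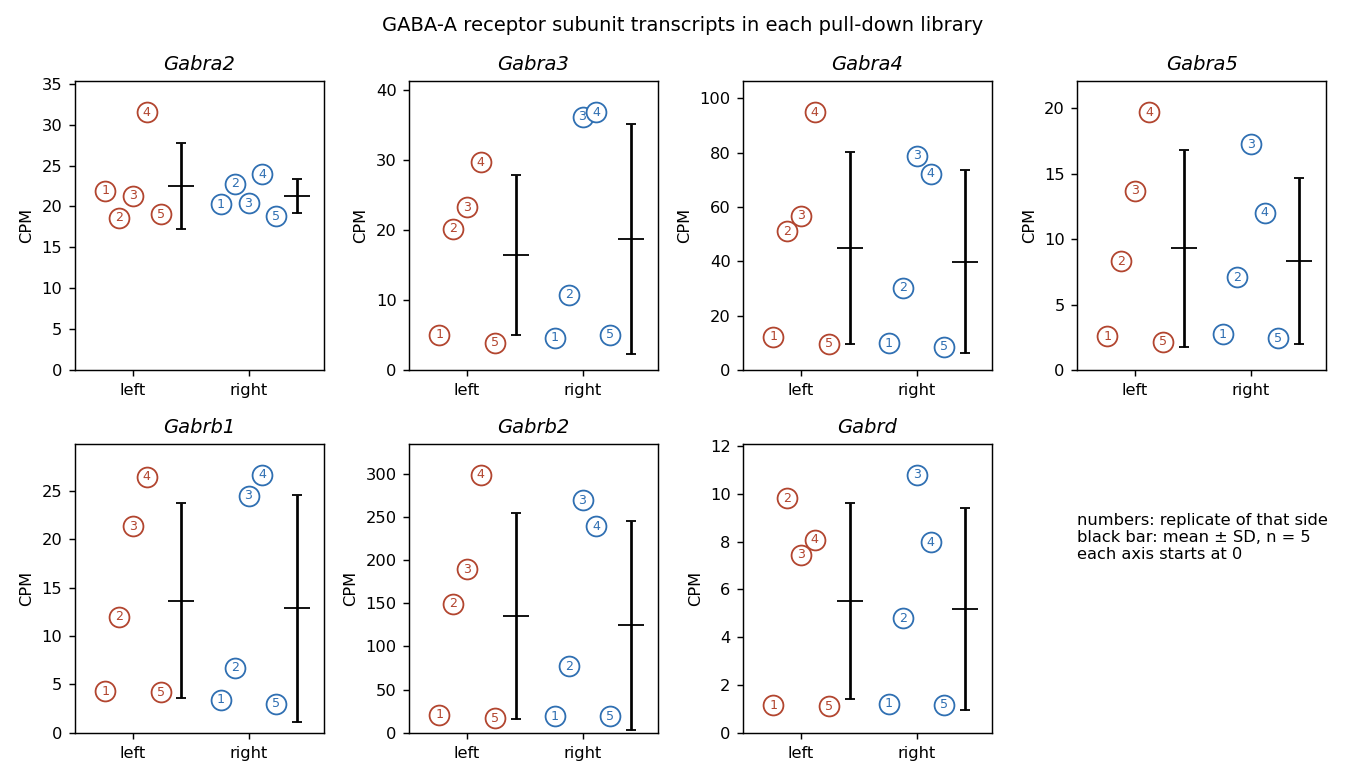
CPM of each subunit in each library, left before right, with the replicate number inside each circle and the mean ± SD of 5 libraries as a black bar; every axis starts at 0. Replicates 1 and 5 lie at the bottom of 6 panels on both sides, while the Gabra2 values lie between 18.6 and 31.5 CPM.

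The genes lie on 5 chromosomes. On GRCm38, chromosome 5 holds Gabra2 (minus strand, 70957597 to 71095849), Gabra4 (minus strand, 71569749 to 71658308) and Gabrb1 (plus strand, 71658113 to 72149037). Gabrb2 is on the plus strand of chromosome 11 from 42419757 to 42629028, Gabra5 on the minus strand of chromosome 7 from 57407672 to 57510059, Gabrd on the minus strand of chromosome 4 from 155384980 to 155398112, and Gabra3 on the minus strand of chromosome X from 72432681 to 72656848. All 7 are protein-coding. Gabra4 and Gabrb1 run head to head and their 5′ ends overlap by 196 bases, of which 46 are exonic in both, while Gabra5 shares 148 exonic bases with the antisense gene Gm9962. Whether the counting used strand is not stated in the labels or file contents, so reads in those bases could not be placed with certainty.

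Promoter windows, from 250 bases before the listed start onward, were available from RefSeq (GRCm38.p6) for 6 of the 7 genes, Gabrd having no entry. The windows of the least variable subunit, of the most variable one and of the head-to-head pair are shown, each for its most upstream listed start, 5′ to 3′ on the strand of the gene. Capitals mark matches on either strand to the core letters of 3 promoter motifs. TATAAA stands for the TATA box, which positions transcription starts. GGGCGG is the letters of the GC box, which Sp1 family factors bind. The CCAAT box was searched by the 5 letters of its name.
Gabra2, chr5:71095800-71096099, minus strand: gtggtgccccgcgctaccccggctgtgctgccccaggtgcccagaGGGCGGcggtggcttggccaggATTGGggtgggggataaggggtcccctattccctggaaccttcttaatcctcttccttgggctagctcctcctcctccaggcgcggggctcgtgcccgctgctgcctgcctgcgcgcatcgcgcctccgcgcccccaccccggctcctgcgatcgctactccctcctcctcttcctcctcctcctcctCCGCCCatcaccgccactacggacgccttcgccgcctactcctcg
Gabra4, chr5:71658259-71658558, minus strand: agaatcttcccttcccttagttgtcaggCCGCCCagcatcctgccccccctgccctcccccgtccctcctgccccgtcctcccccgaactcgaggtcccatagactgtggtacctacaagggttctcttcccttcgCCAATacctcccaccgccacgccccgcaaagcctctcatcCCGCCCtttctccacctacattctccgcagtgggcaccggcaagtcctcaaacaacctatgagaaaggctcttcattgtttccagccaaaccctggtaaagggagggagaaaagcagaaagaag
Gabrb1, chr5:71657671-71657970, plus strand: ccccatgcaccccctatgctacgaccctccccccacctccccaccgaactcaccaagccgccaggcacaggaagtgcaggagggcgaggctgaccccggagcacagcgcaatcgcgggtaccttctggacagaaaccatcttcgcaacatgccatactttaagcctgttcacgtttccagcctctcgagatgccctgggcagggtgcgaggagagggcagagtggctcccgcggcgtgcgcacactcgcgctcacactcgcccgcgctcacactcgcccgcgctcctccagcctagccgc
Gabrb2, chr11:42420190-42420489, plus strand: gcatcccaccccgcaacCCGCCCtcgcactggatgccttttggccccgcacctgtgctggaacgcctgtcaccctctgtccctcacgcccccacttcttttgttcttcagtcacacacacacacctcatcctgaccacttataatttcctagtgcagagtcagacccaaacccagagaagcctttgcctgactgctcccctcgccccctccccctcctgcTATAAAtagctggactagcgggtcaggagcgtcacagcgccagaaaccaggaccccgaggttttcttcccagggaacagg

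The 4 windows differed in motif matches or CpG count, and any part of promoters in the variation between libraries was not tested. The Gabra2 window, of the stable transcript, held 2 GC boxes, 1 CCAAT box and 25 CpG dinucleotides, against a median of 7 CpG over all 32851 windows in the table. The Gabra4 window also held 2 GC boxes and 1 CCAAT box, with 12 CpG. The Gabrb1 window held none of the 3 motifs but 25 CpG, and its listed start lies 387 bases from that of Gabra4. Gabrb2 held 1 TATA box, beginning 30 bases before the start, and 1 GC box. Of all windows, 13.6% held the TATA letters, 35.7% the GC box and 37.4% the CCAAT letters, and a match is a description of the letters. Gabrb1 has 2 listed starts and Gabrb2 has 3, and the windows of the later starts held none of the 3 motifs apart from 1 CCAAT box in the second Gabrb2 window.

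The comparison of the sides asked whether the ribosome-bound transcript of any subunit differs in level between left and right medial habenula. The quasi-likelihood test of edgeR, fitted over all genes with Benjamini-Hochberg adjustment, called 0 of the 7 subunits, and the background was 0.00% of 16250 genes. At an unadjusted p under 0.05 edgeR gave 0 of 7, where 0.554% of all genes passed, and DESeq2 also called 0 of 7 with 0 unadjusted. The log2 fold changes, left minus right, had a median of 0.057 over the 7, with 6 above 0, beside a median of -0.0097 over all genes tested. In bulk samples fewer cells of a type and less RNA per cell cannot be told apart.

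The width of the intervals differed far more between subunits than the fold changes did. Gabra2 had a log2 fold change of 0.057 with a 95% interval of -0.29 to 0.40, which does not include a 2-fold difference in either direction. Gabrb2 had 0.061 with an interval of -2.07 to 2.19, and Gabra4 had 0.12 with -1.62 to 1.86. Gabra5 stood at 0.12 (-1.48 to 1.72), Gabrb1 at 0.037 (-1.65 to 1.72), Gabrd at 0.048 (-1.71 to 1.81) and Gabra3 at -0.24 (-1.91 to 1.44). In this fit, with side as the only term, the intervals of those 6 include a 2-fold difference in both directions. An exact two-sided permutation test of the mean CPM over all assignments of 5 libraries to a side gave p values between 0.770 and 0.960, where the smallest possible was 0.00794.

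**Figure D2:**
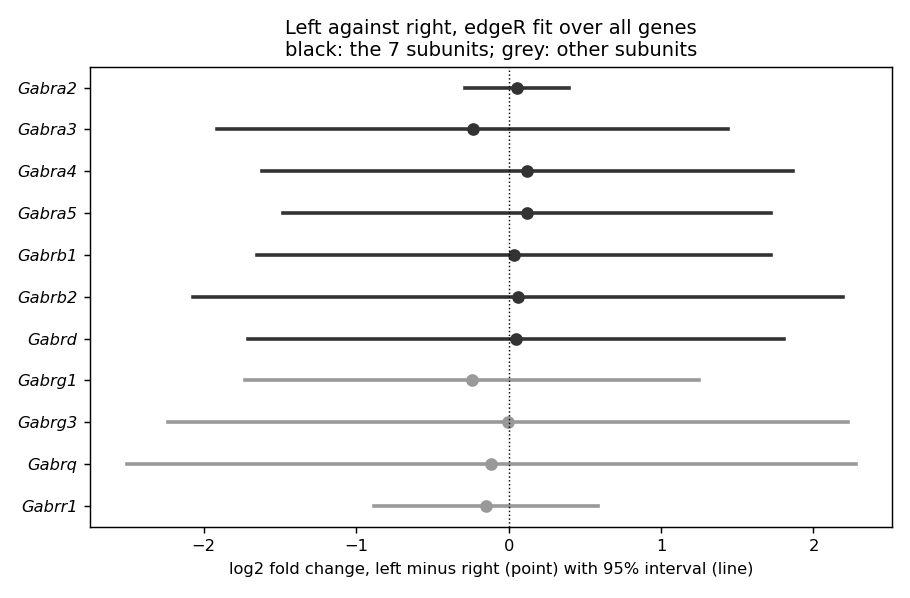
Log2 fold change, left minus right, of the 7 subunits (black) and 4 other subunits (grey), with the 95% interval of the edgeR fit as a line. The Gabra2 interval runs from -0.29 to 0.40, and that of Gabrb2 from -2.07 to 2.19.

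Adding a block or a marker covariate to the fit narrowed those intervals. With the replicate number as a block the Gabrb2 interval was -0.27 to 0.51. It was -0.29 to 0.56 with sequencing lane as a block over replicates 2 to 5. The part of cell make-up in the spread was not tested. With the mean log2 CPM of glial and vascular markers as a covariate, Gabrb2 had a log2 fold change of 0.16 (-0.021 to 0.35) and Gabra4 of 0.24 (0.025 to 0.46, edgeR adjusted p = 0.999), and 0 of 7 were called. The intervals of all 7 in that fit lay between -0.35 and 0.66, which leaves out a 2-fold difference. With thalamic markers as the covariate the values were 0.18 and 0.26, again with 0 of 7 called. The labels put the left and right libraries of each of replicates 2 to 5 on 1 sequencing lane. With lane as a block over these 8 libraries the log2 fold changes were 0.034 for Gabra2, -0.12 for Gabra3, 0.20 for Gabra4, 0.11 for Gabra5, 0.24 for Gabrb1, 0.13 for Gabrb2 and 0.10 for Gabrd, with 0 called; replicate 1 was on different lanes on the 2 sides. In limma-voom with sample weights, which let single libraries count for less, 0 of 7 passed (smallest adjusted p = 0.282), all 7 values were above 0, and 4 had an unadjusted p under 0.05, where 14.8% of all genes did. Those 4 were Gabra4 at 1.60, Gabrb1 at 1.52, Gabrb2 at 1.84 and Gabrd at 1.64, so for the variable subunits the size of the difference depends on how the libraries are weighted.

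Replicates 1 and 5 alone gave a call for Gabrb1. Its 4.30 and 4.20 CPM in left libraries stood against 3.41 and 3.03 CPM in right libraries, a log2 fold change of 0.40 (95% interval 0.17 to 0.63, edgeR adjusted p = 0.0380). In that fit 12.8% of 15569 genes were called, and 1 of 7 subunits is near that background. Its p-values rest on the small scatter within the closest pair of libraries of each side. Gabra4 had 0.26 with an adjusted p of 0.120 from the same edgeR fit, Gabra2 0.071 and Gabrb2 -0.0135. Without replicates 1 and 5, edgeR called 0 of the 7 subunits, and the log2 fold changes lay between -0.22 for Gabra3 and 0.17 for Gabra5. In replicates 2 to 4 alone Gabrb1 had 11.993, 21.3 and 26.4 CPM in left libraries and 6.72, 24.5 and 26.6 CPM in right libraries, a log2 fold change of 0.0185 (-1.06 to 1.09).

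Levels of different genes were compared per kilobase of exon, in CPM per kb of the exons in GENCODE M21. Gabrb2 was first of the 7 in 10 of 10 libraries and Gabrb1 last in 10 of 10. Gabrb2 averaged 21.2 ± 18.7 CPM per kb in left libraries and 19.6 ± 19.0 in right libraries, and Gabra4 averaged 7.39 ± 5.81 in left libraries and 6.57 ± 5.54 in right ones. Below them by their means came Gabra3 (4.19 ± 2.92 on the left, 4.77 ± 4.20 on the right), Gabra5 (3.12 ± 2.52 and 2.79 ± 2.13 CPM per kb, left and right), Gabra2 (2.94 ± 0.688 and 2.78 ± 0.273), Gabrd (1.92 ± 1.42 and 1.81 ± 1.47) and Gabrb1 (0.987 ± 0.725 and 0.929 ± 0.846). On either side no neighbours in this order differed by more than the larger of their SDs. Those SDs hold the variation between libraries that most of the subunits share, so they do not measure how steady the order was within libraries. Within single libraries Gabrb2 was always above Gabra4, at 1.64 to 3.26 times its level per kb. The annotated exons of Gabrb1 cover 13838 bases, the most of the 7. Without division by length it was between places 4 and 6, Gabrd was last in 9 libraries, and Gabrb2 was first in 7 and Gabra2 in 3.

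In percentage points, the make-up of the 7 transcripts changed between libraries mainly at 2 places, Gabrb2 and Gabra2. Gabra2 made up 25.9%, 5.24%, 4.93%, 4.82% and 27.3% of the summed CPM per kb in left replicates 1 to 5, against 26.3%, 10.9%, 3.40%, 4.43% and 25.7% in right replicates 1 to 5. Gabrb2 made up 30.0%, 50.4%, 52.6%, 54.8% and 28.7% in left replicates 1 to 5, against 30.0%, 44.3%, 53.9%, 53.1% and 31.2% in right replicates 1 to 5. Gabra2 was thus the second transcript of the 7 in replicates 1 and 5 of both sides and stood at the fifth or the sixth place in left replicates 2 to 4 and right replicates 3 and 4. Shares are among these 7 only and say nothing of subunits outside them.

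The other subunits kept shares that were narrower in percentage points while their levels ranged 8.79-fold to 11.1-fold. As a ratio of highest to lowest share, Gabrd varied more than Gabrb2 (28.7% to 54.8%), and Gabrb1 about as much. Gabra4 made up 16.5% to 18.2% of the sum in left libraries and 14.7% to 18.2% in right libraries. Gabra3 made up 8.86% to 11.7% on the left and 10.01% to 13.4% on the right, and Gabra5 6.01% to 8.13% on the left and 5.70% to 9.19% on the right. Gabrb1 made up 1.86% to 3.32% in left libraries and 1.77% to 2.72% in right ones, and Gabrd 3.28% to 7.33% in left libraries and 3.92% to 6.10% in right ones, highest in replicate 2 of both sides. The summed level of all 7 was 9.15 to 85.6 CPM per kb in left libraries and 9.58 to 78.5 in right libraries.

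**Figure D3:**
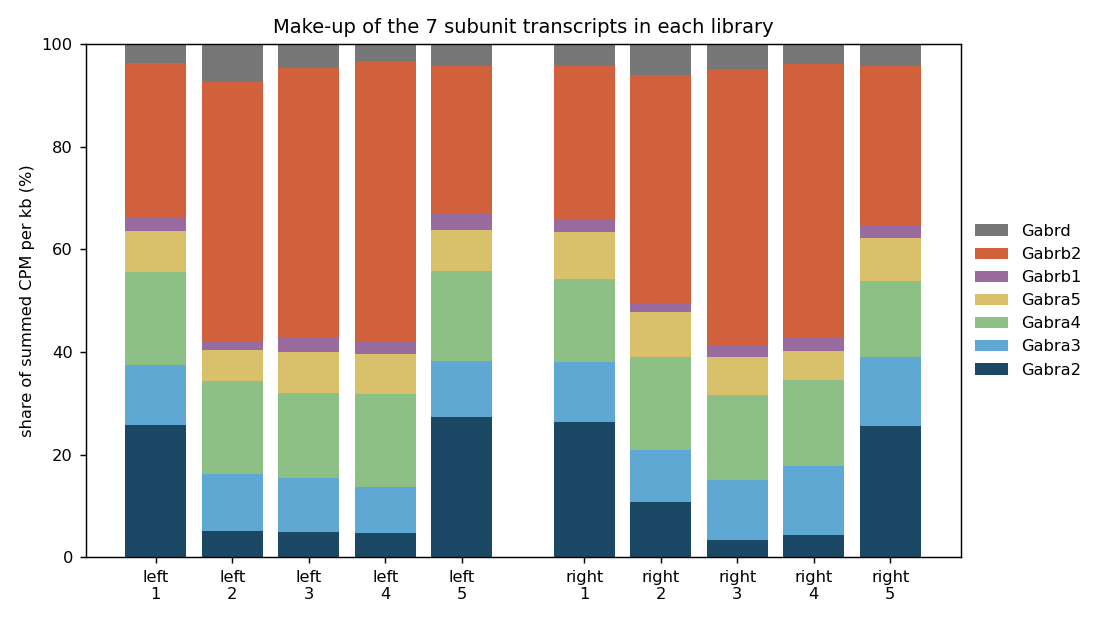
Share of each subunit in the summed CPM per kb of the 7, for left replicates 1 to 5 and then right replicates 1 to 5; each bar adds to 100%. The Gabra2 block shrinks and the Gabrb2 block grows outside replicates 1 and 5, while the Gabra4 block stays between 14.7% and 18.2%.

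Ratios between subunits showed which varied in step. Gabrb2 over Gabra2, per kb, was 1.16, 9.63, 10.7, 11.4 and 1.05 in left replicates 1 to 5, against 1.14, 4.08, 15.8, 11.99 and 1.21 in right replicates 1 to 5, a 15.04-fold range. Gabrb2 over Gabra4 stayed between 1.64 and 3.26, a 1.99-fold range, and was lowest in replicates 1 and 5 of both sides. Gabrd over Gabra4, the δ and α4 pair, ranged from 0.180 in left replicate 4 to 0.407 in left replicate 2. Between centred log2 profiles the closest subunits were Gabra3 and Gabra4, with a root mean square difference of 0.25 over the 10 libraries, and each pair that held Gabra2 differed by 1.09 to 1.59.

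Summed markers of most other cell types moved with the 6 variable subunits, though not every marker did. Of 11 lateral habenula markers, 7 were lower and 2 higher in replicates 1 and 5 than in replicates 2 to 4 on both sides. Also lower there were 8 of 8 oligodendrocyte precursor and 10 of 12 microglia markers. The same held for 10 of 14 endothelial and pericyte and 4 of 10 ependyma and choroid plexus markers, with 0 higher. The 17 thalamic neuron markers, all with reads in every library, summed to 1695 to 4203 CPM on the left and 1645 to 3970 CPM on the right. Among them Prkcd, a kinase of relay neurons chosen here after its values were seen, had 15.7, 181, 174, 253 and 14.1 CPM in left replicates 1 to 5, against 13.4, 99.99, 298, 216 and 14.8 CPM in right replicates 1 to 5. Those values were high and low in the same libraries as Gabrb2. Of the 17 markers, 14 were lower in replicates 1 and 5 than in replicates 2 to 4 on both sides. Calb2, a calcium-binding protein, was higher there, with 218, 173, 128, 97.4 and 236 CPM in left replicates 1 to 5, against 222, 174, 116, 166 and 224 CPM in right replicates 1 to 5, and Cck and Slc17a6 did neither; Calb2, Cck and, among the GABAergic markers, Dlx5 are also named after their values were seen. The thalamic list is led by Amotl1 and Slc17a6, whose ranges were only 365 to 618 CPM and 324 to 508 CPM over the 10 libraries.

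The summed markers of GABAergic neurons had a range of 20.9-fold, carried mostly by Gad2. Their sum was 27.9 to 411 CPM on the left and 42.9 to 583 CPM on the right, with 7 of 12 read in every library and Dlx1, Dlx2, Dlx6, Lhx6 and Vip at 0 in at least 1. Gad2, which makes GABA, ran from 15.7 to 417 CPM. Of the 12 markers 4 were lower in replicates 1 and 5 on both sides and 8 were neither lower nor higher there; Dlx5, for example, had at most 0.665 CPM in any library. Oligodendrocyte markers (14 of 14 in every library) summed to 113 to 1840.2 CPM on the left and 112 to 1869.7 CPM on the right, with Mbp, a myelin protein, the most abundant. Astrocyte markers (15 of 15) summed to 609.8 to 2304 CPM on the left and 655 to 2046 CPM on the right, led by Atp1b2 and Slc1a2. Of these, 14 oligodendrocyte and 14 astrocyte markers were lower in replicates 1 and 5 on both sides. The sums of all 4 lists were lowest there. The sum of the medial habenular markers was highest there, as were 9 of its 12 members on both sides. The sum of the 12 hippocampal markers ranged 1.21-fold, but single members did not stay level, since 5 were lower and 3 higher in replicates 1 and 5 on both sides. Prox1 ranged from 50.1 to 198 CPM and Neurod1 from 112 to 244 CPM in the opposite direction. The part of these transcripts in the levels of the subunits was not tested.

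**Figure D4:**
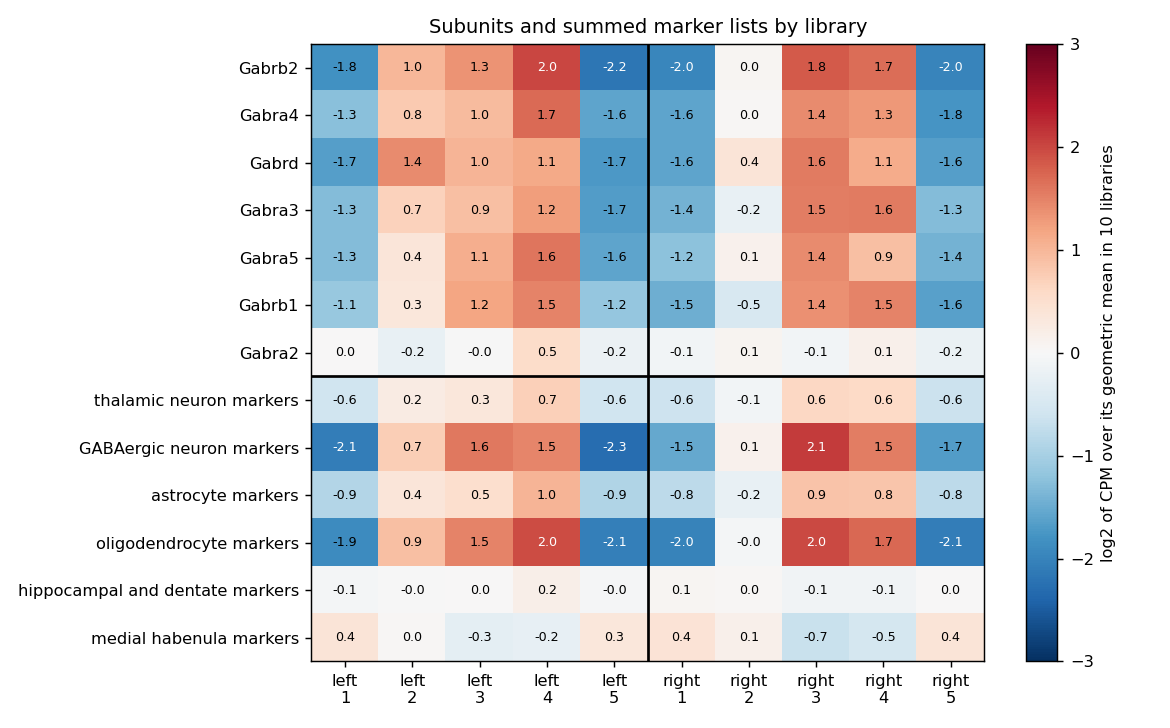
Log2 of the CPM of each subunit, and of the summed CPM of 6 marker lists, over its own geometric mean in the 10 libraries, with left libraries before right; red is above and blue below that mean. The upper 6 subunits, the oligodendrocyte and the GABAergic lists are blue in replicates 1 and 5 of both sides, whereas Gabra2 lies between -0.21 and 0.55.

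For each subunit the transcripts with the most similar profile over the 10 libraries were taken from 10589 other genes that averaged 5 CPM or more, by the smallest root mean square difference of centred log2 CPM. Those nearest to Gabrb2 were Fa2h, an enzyme of myelin lipids (0.092), Grin2d, an NMDA receptor subunit, and Kcna6, a voltage-gated potassium channel. Gabra4 was nearest to Adcy1, a calcium-stimulated adenylyl cyclase (0.091), A830082K12Rik and Ntng1, and Gabrd to Rgs16, a regulator of G protein signalling on the thalamic list (0.15), Tox2 and Fam189a1. Gabra5 was nearest to Ank2, an ankyrin (0.067), Map1a and Arhgap21, Gabra3 to the noncoding Miat (0.12), Clic4 and Snhg11, and Gabrb1 to Abca1, a cholesterol transporter (0.15), Limch1 and Zcchc24. Gabra2 was nearest to D2hgdh (0.078), Mcm8 and Homer1, a postsynaptic scaffold. The median gene differed from Gabrb2 by 1.76 and from Gabra2 by 0.35, so a small difference from Gabra2 was common among all genes.

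Other members of the receptor family were measured beside the 7. Of 9 further subunits, 6 had enough reads for the test, 0 were called by edgeR or DESeq2, 0 had an unadjusted edgeR p under 0.05, and 6 had a log2 fold change below 0 with a median of -0.14. Gabrg1 and Gabrg3, which encode γ subunits, ranged from 1.119 to 12.03 and from 1.14 to 28.2 CPM over the 10 libraries, and Gabrq, the θ subunit, from 0.415 to 17.0 CPM. Gabrr1, a ρ subunit best known from retina, had another pattern, with 2.31, 2.93, 1.18, 1.51 and 2.36 CPM in left replicates 1 to 5, against 2.76, 3.18, 1.45, 1.22 and 2.71 CPM in right replicates 1 to 5. It was highest in replicate 2 and lowest in replicates 3 and 4 of both sides. In replicates 1 and 5 alone Gabrg1 was called, with 1.60 and 1.119 CPM in left libraries against 3.22 and 3.31 CPM in right libraries (log2 fold change -1.26, edgeR adjusted p = 0.00689), and its direction was opposite to that of Gabrb1. In that fit 12.8% of 15569 genes were called, so the call is not read as a result about the other subunits.

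Genes that hold the receptors at synapses included abundant transcripts, and the median gene of the list ranged 1.60-fold over the libraries. Of 21 genes for clustering and trafficking 19 were measured and tested, 0 were called, 5 had a log2 fold change above 0 and 14 below, and the median was -0.023. Gabarapl1, which traffics receptors and serves autophagy, ranged from 328 to 717 CPM, Ubqln1, which slows receptor turnover, from 168 to 268 CPM, and Gabarap from 120 to 266 CPM. Of the 19 only Gabarapl2 ranged at least 5-fold. Gabarapl2 and Gphn, the scaffold gephyrin, are named after their values were seen, and Gphn had 62.3 ± 9.15 CPM in left libraries and 60.1 ± 9.73 CPM in right libraries.

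The direction of the current through the receptor depends on chloride transport. Of 12 such genes 0 were called, 7 had a log2 fold change above 0 and 5 below, with a median of 0.019. The kinases Wnk1, Wnk2, Wnk3 and Stk39, which regulate the cotransporters, were the most abundant, at 411 to 852, 189 to 301, 140 to 251 and 171 to 233 CPM. Slc12a5, the neuronal chloride exporter KCC2, was picked out after its values were seen. It had 42.8, 169, 244, 288 and 41.6 CPM in left replicates 1 to 5, against 47.9, 104, 339, 261 and 47.0 CPM in right replicates 1 to 5, high and low in the same libraries as Gabrb2. Slc12a2, the importer NKCC1, named likewise, ranged 2.92-fold, from 22.5 to 65.8 CPM. Among 8 genes of endogenous modulators 4 were tested and 0 were called, with Tspo alone at an unadjusted edgeR p under 0.05 (log2 fold change -0.84), where 0.554% of all genes passed. Tspo rested on 10 to 32 reads per library. Dbi, the precursor of endozepines, stood at 37.0 to 69.6 CPM and Star, which moves cholesterol for neurosteroid synthesis, at 14.1 to 21.1 CPM, with Srd5a1 at 6.31 to 8.65 CPM and Tspo at 0.152 to 0.491 CPM.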

How the data were processed

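Ribosome-bound RNA of 10 libraries, 5 left and 5 right, was sequenced. The authors deposited whole-number counts by gene for each library. The submitters' processing notes name STAR 2.0.0e, HTSeq and mm10; annotation, strand setting and filters were not stated. Of 32537 table lines, 6 that are no gene were dropped, and no-feature reads made up 13.6% to 18.9% of gene, no-feature and ambiguous reads together. Groups came from sample titles.

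The main test was the quasi-likelihood test of edgeR 4.0.16 (R 4.3.3; TMM, filterByExpr with a minimum count of 10, robust, side as the only term, two-sided), adjusted over all genes at 0.05, with intervals from the F statistic. Log2 CPM for profiles and scores used a prior count of 2. The fit was also run on simulated counts, drawn independently for each gene and library. Such counts lack the variation between libraries that many genes share here, so the run cannot show that the fit suits these data. Alternatives used DESeq2 1.42.0, limma 3.58.1, other factors and filters, blocks, covariates and left-out libraries. CPM scaled by TMM totals or without Rn45s was added after seeing the data. Gene lengths came from GENCODE M21 (GRCm38) and promoters from RefSeq.

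Named were the 7 subunits, of each list the 4 most abundant genes (for other subunits those with at least 1 CPM), and the 3 nearest profiles. The members and lists were chosen with earlier results of these data known. A few genes are not reported here. Figures were drawn with matplotlib 3.10.9.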

Additional observations from a re-analysis of the deposited data

Results flagged for a closer look

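Gabra2 in left replicate 4 stood apart from its group, at 31.5 CPM (2071 reads), while the other 4 left libraries lay between 18.6 and 21.9 CPM. The gap to the next value took up more than 0.71 of the range of the 5 libraries. The same library had the highest Gabrb2, Gabra4 and Gabra5 of all 10. Without it the log2 fold change of Gabra2, left minus right, was -0.090. Chance alone marks about 1 in 20 such groups, and 14 groups were examined.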

How the results depend on the processing

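Except for replicates 1 and 5 alone, 0 genes were called between the sides with every normalisation, filter, block, covariate and left-out library tried. In those settings 0 genes had an adjusted p under 0.10, and 23 to 2409 had an unadjusted p under 0.05. Replicates 1 and 5 alone gave 1992 called genes, 12.8% of 15569. Among them were Gabrb1 at 0.40 and 1 gene each of the other subunits, the clustering and the chloride lists. With so large a share of all genes called, these calls are not read as results about the lists. In replicates 1 and 5 alone the log2 fold changes of Gabra5, Gabrb2 and Gabrd turned to -0.12, -0.0135 and -0.071. That of Gabra3 was 1.25 in limma-voom, and the cause was not tested. Leaving out single libraries moved Gabra2 between -0.090 and 0.12, Gabra3 between -0.55 and 0.20, Gabra4 between -0.34 and 0.54, Gabra5 between -0.34 and 0.59, Gabrb1 between -0.34 and 0.53, Gabrb2 between -0.45 and 0.56, and Gabrd between -0.26 and 0.52, with no call. Replicate numbers were not taken as pairs in the main fit, since the labels give the sides and no other group. The same-number correlation of deviations was 0.096 for replicate 2. That low value does not speak to pairing, because right replicate 2 had correlations of only -0.057 to 0.096 with all left libraries, its own number being the highest. The same-number correlation was 0.86, 0.81, 0.71 and 0.87 for replicates 1, 3, 4 and 5, and other-number pairs ran from -0.87 to 0.86. These correlations do not show that there is no pairing, and the left and right libraries of replicates 2 to 5 shared lanes. With the replicate number as a block 0 genes were called. In that fit Gabra2 had 0.038, Gabra3 -0.085, Gabra4 0.21, Gabra5 0.059, Gabrb1 0.25, Gabrb2 0.12 (95% interval -0.27 to 0.51) and Gabrd 0.058. Mean shares depend on the length used. By the longest transcript they were 8.12% on the left and 9.26% on the right for Gabra3, 18.7% on the left for Gabra4, 5.99% and 6.33% for Gabra5, 1.87% and 1.66% for Gabrb1 and 3.54% on the right for Gabrd. Without division they were 6.93% and 7.95% for Gabra3, 3.73% and 3.95% for Gabra5, 5.94% and 5.34% for Gabrb1 and 2.23% and 2.26% for Gabrd. The 14 mean CPM values moved by less than 1 SD under each of 2 other scalings. That is a weak check for the variable subunits, since their SDs are nearly as large as their means. Gabrb2 on the left averaged 135 CPM, 133 with TMM-scaled totals and 142 with totals without Rn45s. Depth limits Gabrd most, at 62 to 82 reads in replicates 1 and 5.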

Other observations

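Glycine receptors, the other chloride channels of fast inhibition, showed both kinds of pattern. Glrb, the β subunit shared by these receptors, had 102, 99.5, 84.4, 103 and 96.0 CPM in left replicates 1 to 5, against 104, 85.4, 90.3, 89.5 and 100.3 CPM in right replicates 1 to 5, a 1.23-fold range. The α subunits did not share that evenness. Glra1 ranged from 0.704 CPM in left replicate 5 to 21.0 CPM in right replicate 3, Glra2 from 0.668 to 11.3 CPM and Glra3 from 0.0722 to 5.21 CPM. Of the 5 subunits edgeR tested, 0 were called between the sides, with 0 at an unadjusted p under 0.05 and 2 log2 fold changes above 0.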
